A study of Mus musculus with 8 samples.

Results

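The genes described here are 10 factors and surface molecules by which mouse dendritic cells are recognised: the transcription factors Irf4, Irf8, Batf3, Id2, Zbtb46, Spi1 and Klf4, the growth factor receptor Flt3, the chemokine receptor Xcr1 and the surface peptidase Dpp4. They were taken by name from the 55487 gene identifiers of the mouse count table, with no value in the rule, and all 10 passed the filter on low counts. The cells were BMDC, dendritic cells grown for 10 days in GM-CSF (20 ng/ml) from the bone marrow of wild-type C57BL/6J mice, females 6 to 8 weeks old per the study's methods. One group of 4 libraries came from untreated BMDC. The other 4 libraries (BMDC-fer) came from BMDC that had been kept for 4 h with ferroptotic cells and then sorted for having engulfed them. The engulfed cells were Jurkat, an established human T-cell leukemia line, killed with 0.5 µM ML162, an inhibitor of GPX4 that triggers ferroptosis, for 14 h. The sources used here do not say that the untreated cells were sorted, so an effect of the cargo, of co-culture, of sorting and of picking out the cells that engulf cannot be told apart. Each library was a bulk sample, in which fewer cells of a type and less RNA per cell cannot be told apart either.

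Conventional dendritic cells fall into a cDC1 branch, which depends on IRF8, BATF3 and ID2 and carries the receptor XCR1, and a cDC2 branch, for which IRF4 and, in some tissues, KLF4 are needed. PU.1, the product of Spi1, acts upstream of both branches, ZBTB46 marks conventional dendritic cells apart from monocytes and macrophages, and FLT3 receives the growth signal on which their precursors depend in the body. DPP4 (CD26) is a cell-surface peptidase used to tell conventional dendritic cells from macrophages. Cultures in GM-CSF are known to hold both dendritic and macrophage-like cells. Genes associated with each kind were present in the untreated cultures. Itgax (CD11c) stood at 1111 ± 294 CPM (counts scaled to library size; SD, n = 4 libraries) in BMDC, the MHC class II gene H2-Ab1 at 2113 ± 1299 CPM, and the macrophage gene Lyz2 at 20340 ± 7688 CPM.

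In BMDC-fer, transcripts of Flt3, Dpp4 and Irf4 fell, and none of the 10 rose by the rule used. A gene was called when edgeR's quasi-likelihood test, adjusted by Benjamini-Hochberg over all tested genes, gave 0.05 or less and the log2 fold change of BMDC-fer over BMDC was at least 0.58 in size. By this rule 3 of the 10 genes were lower in BMDC-fer and 0 were higher; DESeq2 also called 0 higher, and at an unadjusted p under 0.05 edgeR gave 5 lower and 1 higher. Over the 15411 genes tested, 9.38% were called, 5.91% as lower and 3.47% as higher. An unadjusted p under 0.05 by edgeR was reached by 4612 of the 15411, in either direction. The log2 fold change was below 0 for 9 of the 10 genes, with a median of -0.84, against a median of 0.0007 over all genes tested. The CPM of the groups did not overlap for 4 of the 10 genes, Irf4, Spi1, Flt3 and Dpp4, where 22.9% of the tested genes showed no overlap. Libraries held between 39326672 and 50532209 counts, and a floor of 3 counts lay between 0.0607 and 0.0785 CPM, which covers counting error only, since without molecular identifiers several reads can stem from 1 molecule. In both groups, replicates 1 and 2 resembled each other more than they resembled replicates 3 and 4, so values are also given within each of these replicate pairs, which are not groups of the study.

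**Figure D1:**
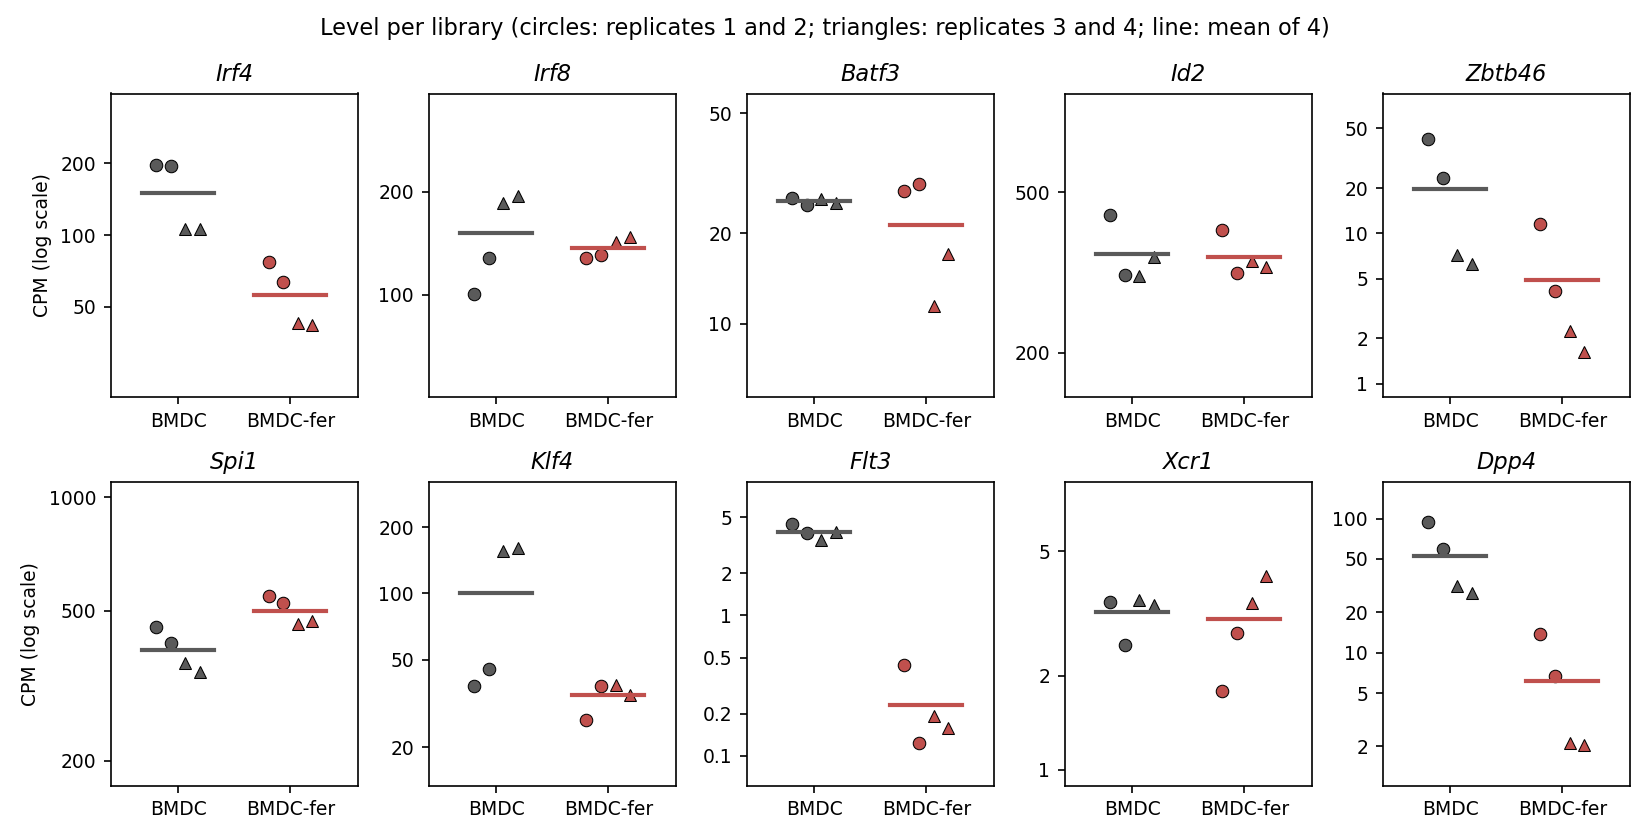
Level of each of the 10 genes in CPM on a log axis that differs between panels, with 1 point per library (circles for replicates 1 and 2, triangles for replicates 3 and 4) and a line at the mean of 4 libraries. The BMDC-fer libraries lie below all BMDC libraries for Irf4, Flt3 and Dpp4 and above them for Spi1, and the groups overlap for the other genes.

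The 250 bases before the start site of the 3 genes that fell are shown for the promoter letters that these genes do and do not share. The sequences are those of RefSeq on GRCm38.p6, printed 5′ to 3′ on the strand of the gene. Capitals mark GAGGAA, letters of the kind PU.1 binds, or GAAANNGAAA, a tandem of IRF type, both read on the opposite strand in these windows.
Irf4 (chr13:30748983-30749232, plus strand): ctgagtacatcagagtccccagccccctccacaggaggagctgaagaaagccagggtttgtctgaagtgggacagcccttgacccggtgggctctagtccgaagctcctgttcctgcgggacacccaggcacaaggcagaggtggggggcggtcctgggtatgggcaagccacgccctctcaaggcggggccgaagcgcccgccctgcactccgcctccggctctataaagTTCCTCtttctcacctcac
Flt3 (chr5:147400490-147400739, minus strand): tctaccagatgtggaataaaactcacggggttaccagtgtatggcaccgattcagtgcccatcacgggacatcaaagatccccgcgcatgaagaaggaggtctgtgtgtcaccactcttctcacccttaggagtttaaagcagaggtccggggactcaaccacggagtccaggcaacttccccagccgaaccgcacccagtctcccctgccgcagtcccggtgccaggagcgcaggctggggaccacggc
Dpp4 (chr2:62412232-62412481, minus strand): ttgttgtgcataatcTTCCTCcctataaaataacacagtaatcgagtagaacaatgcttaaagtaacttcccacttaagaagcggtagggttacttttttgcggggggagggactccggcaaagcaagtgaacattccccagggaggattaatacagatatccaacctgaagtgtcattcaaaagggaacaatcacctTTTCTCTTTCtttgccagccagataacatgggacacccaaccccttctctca
Counting from the start site, the match in Irf4 begins at base -19, and those in Dpp4 begin at -235 for GAGGAA and at -52 for GAAANNGAAA. The Flt3 window held neither motif, nor the composite of ETS and IRF letters GGAANNGAAA, nor the AP-1 letters TGANTCA. Among 32851 mouse promoter windows of 300 bases, from 250 before to 50 after a start, GAGGAA was present on either strand in 28.28%, GAAANNGAAA in 3.44%, GGAANNGAAA in 2.72% and TGANTCA in 7.81%. The single AP-1 match among the members lay in the window of Zbtb46, whose RefSeq start is 35038 bases inside the GENCODE gene. GAGGAA also occurs in the window of Batf3, which was not called. A match is a run of letters and was not tested as a binding site.

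Flt3 (chr5:147330741-147400489, minus strand, GRCm38) encodes the receptor tyrosine kinase for Flt3 ligand and had the lowest level per length of the 10 genes in both groups. BMDC replicates 1 to 4 held 194, 183, 145 and 158 counts, against 22, 5, 8 and 6 in the BMDC-fer replicates taken in the same order. In CPM these were 4.47, 3.85, 3.43 and 3.94 in BMDC and 0.445, 0.122, 0.192 and 0.157 in BMDC-fer. The untreated cultures lay close together, every BMDC-fer library was far below them, and the highest of the 4 was replicate 1. The mean of 0.229 ± 0.147 CPM in BMDC-fer was 16.6-fold lower than the 3.92 ± 0.427 CPM of BMDC (log2 fold change -4.06 ± 0.40 SE, adjusted p = 0.00207, edgeR). Its log2 fold change ranked 8 from the lowest among the 15411 genes tested. The exact two-sided permutation test of the log2 values gave p = 0.0286, the smallest that 4 libraries against 4 allow. It shuffled the libraries freely, so it ignores that libraries of a replicate pair resembled each other. The log2 fold change measured -3.81 within replicates 1 and 2, and -4.37 within the other pair.

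Dpp4 (chr2:62330073-62412231, minus strand) stood at 93.6, 58.9, 31.4 and 27.8 CPM in BMDC replicates 1 to 4. In BMDC-fer it stood at 13.8, 6.66, 2.11 and 2.04 CPM. Replicates 1 and 2 were above replicates 3 and 4 in both groups, and the highest BMDC-fer library remained below the lowest BMDC library. The mean fell 8.56-fold, from 52.9 ± 30.5 to 6.16 ± 5.55 CPM (log2 fold change -3.10 ± 0.70 SE, adjusted p = 0.0259, edgeR; exact permutation p = 0.0286). The fall measured -2.89 on the log2 scale in replicates 1 and 2 but -3.83 in the later-numbered pair. The call of Dpp4 was lost without BMDC-fer replicate 2, 3 or 4, with adjusted p = 0.0699, 0.0589 and 0.0689 by edgeR. Exons of Dpp4 overlap those of Gm13561 on the other strand over 232 bases (3.67% of the exonic length), and the sources used here do not say whether counting used strand.

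Xcr1 (chr9:123852315-123862029, minus strand), the cDC1 receptor for the chemokine XCL1, had 149, 119, 148 and 135 counts in untreated cells, against 88, 112, 143 and 159 counts in BMDC-fer. On the CPM scale the BMDC libraries stood at 3.43, 2.51, 3.50 and 3.37, and the BMDC-fer libraries at 1.78, 2.74, 3.43 and 4.16. Xcr1 was thus detected in every library at a low level, and its groups overlapped, with the lowest and the highest library both in BMDC-fer. The log2 fold change of -0.08 had a 95% interval from -0.71 to 0.55 (adjusted p = 0.866, edgeR). Of the 50-base words of its transcript, 1.63% also occur in other genes.

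Irf4 (chr13:30749226-30766976, plus strand), the IRF family member of the cDC2 branch and of migratory dendritic cells, stood at 196, 195, 106 and 106 CPM in BMDC. It stood at 77.0, 63.5, 42.7 and 41.9 CPM in BMDC-fer. Replicates 1 and 2 were above replicates 3 and 4 in each group, and no BMDC-fer library reached the lowest BMDC library. The mean fell 2.67-fold, from 150.5 ± 51.5 to 56.3 ± 17.1 CPM (log2 fold change -1.42 ± 0.29 SE, adjusted p = 0.0193, edgeR; exact permutation p = 0.0286). Both replicate pairs gave much the same value, -1.47 for replicates 1 and 2 against -1.32 for replicates 3 and 4. Without BMDC-fer replicate 3 or 4 the call was lost, with adjusted p = 0.0544 and 0.0664 by edgeR.

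Zbtb46 (chr2:181387762-181459426, minus strand), the zinc finger factor of conventional dendritic cells, varied most among the untreated cultures, at 42.7, 23.3, 7.22 and 6.29 CPM. BMDC-fer replicates 1 to 4 stood at 11.5, 4.11, 2.25 and 1.62 CPM. BMDC-fer replicate 1 exceeded BMDC replicates 3 and 4, yet each BMDC-fer library was below the BMDC library of the same number. Without regard to the replicate number Zbtb46 was not called by edgeR, with means of 19.9 ± 17.1 and 4.87 ± 4.54 CPM (log2 fold change -2.02 ± 0.79 SE, adjusted p = 0.125, edgeR; exact permutation p = 0.114). DESeq2, also without the replicate number, did call Zbtb46 (log2 fold change -2.02, adjusted p = 0.0264, DESeq2). With the replicate number as a block it was called, at a log2 fold change of -2.01 and adjusted p = 0.00496 by edgeR. The block raised the number of the 10 genes called to 4, and in that fit 8.13% of all tested genes were called lower and 4.85% higher. Within replicates 1 and 2 the value was -2.07, and within replicates 3 and 4 it was -1.80.

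Klf4 (chr4:55527143-55532466, minus strand), a zinc finger factor with roles in monocytes and in cDC2, stood at 38.1, 45.4, 156 and 161 CPM in untreated cultures and at 26.7, 38.1, 38.2 and 34.4 CPM in BMDC-fer. Only BMDC replicates 3 and 4 stood high, and BMDC replicate 1 lay within the range of BMDC-fer. The log2 fold change of -1.54 ± 0.47 SE did not reach the threshold (adjusted p = 0.067, edgeR; exact permutation p = 0.0857). Klf4 was called without BMDC replicate 1 (adjusted p = 0.0317, edgeR) or 2 (adjusted p = 0.0416, edgeR). DESeq2 with all libraries also called it (log2 fold change -1.54, adjusted p = 0.0085, DESeq2). The difference between the replicate pairs was itself large, at -0.37 for replicates 1 and 2 against -2.13 for replicates 3 and 4, and the interaction of group with replicate pair was -1.76 on the log2 scale (adjusted p = 0.00054, edgeR). Such an interaction passed an adjusted p of 0.05 for 37.8% of the tested genes and for 3 of the 10 genes here, Klf4, Irf8 and Batf3.

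Irf8 (chr8:120736358-120756694, plus strand), the cDC1 counterpart of Irf4, stood at 100.2, 128, 186 and 194 CPM in untreated cultures and at 128, 131, 142 and 148 CPM in BMDC-fer. The 4 BMDC-fer libraries lay within the range of the untreated cultures and were closer together. Its log2 fold change of -0.15 ± 0.20 SE had a 95% interval from -0.61 to 0.31 (adjusted p = 0.657, edgeR), which does not include a fall of the size seen for Irf4. The replicate pairs pointed in opposite directions, at 0.18 for replicates 1 and 2 against -0.39 for replicates 3 and 4 (interaction -0.57, adjusted p = 0.0173, edgeR).

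Batf3 (chr1:191097847-191108945, plus strand), the AP-1 family factor that cDC1 require, was the most even of the 10 genes in untreated cells, at 26.1, 24.8, 25.9 and 25.2 CPM. BMDC-fer replicates 1 and 2 stood at 27.7 and 29.0 CPM, whereas replicates 3 and 4 stood at 11.4 and 17.0 CPM. The first pair lay above every untreated culture and the second below. Over all libraries the log2 fold change was -0.26 ± 0.27 SE with a 95% interval from -0.87 to 0.35 (adjusted p = 0.545, edgeR), while within the pairs it was 0.15 and -0.85 (interaction -1.003, adjusted p = 0.00766, edgeR).

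Id2 (chr12:25093799-25097140, minus strand) encodes an inhibitor of E proteins that favours conventional over plasmacytoid dendritic cells. It stood at 439, 311, 310.0 and 345 CPM in untreated cultures and at 403, 315, 337 and 325 CPM in BMDC-fer. Replicate 1 was the highest library of each group and the groups overlapped throughout. Its log2 fold change of -0.03 ± 0.15 SE had a 95% interval from -0.36 to 0.31 (adjusted p = 0.921, edgeR).

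Spi1 (chr2:91082390-91115756, plus strand), the gene of PU.1, stood at 452.5, 410.4, 364.5 and 344 CPM in untreated cultures and at 548, 523, 461 and 468 CPM in BMDC-fer. It was the one member whose log2 fold change was above 0, and the lowest BMDC-fer library lay above the highest BMDC library. The means were 392.8 ± 48.5 and 500.2 ± 42.3 CPM (log2 fold change 0.35 ± 0.12 SE). This difference was not called (adjusted p = 0.101, edgeR), although the exact permutation test gave p = 0.0286. The replicate pairs gave 0.31 and 0.39.

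**Figure D2:**
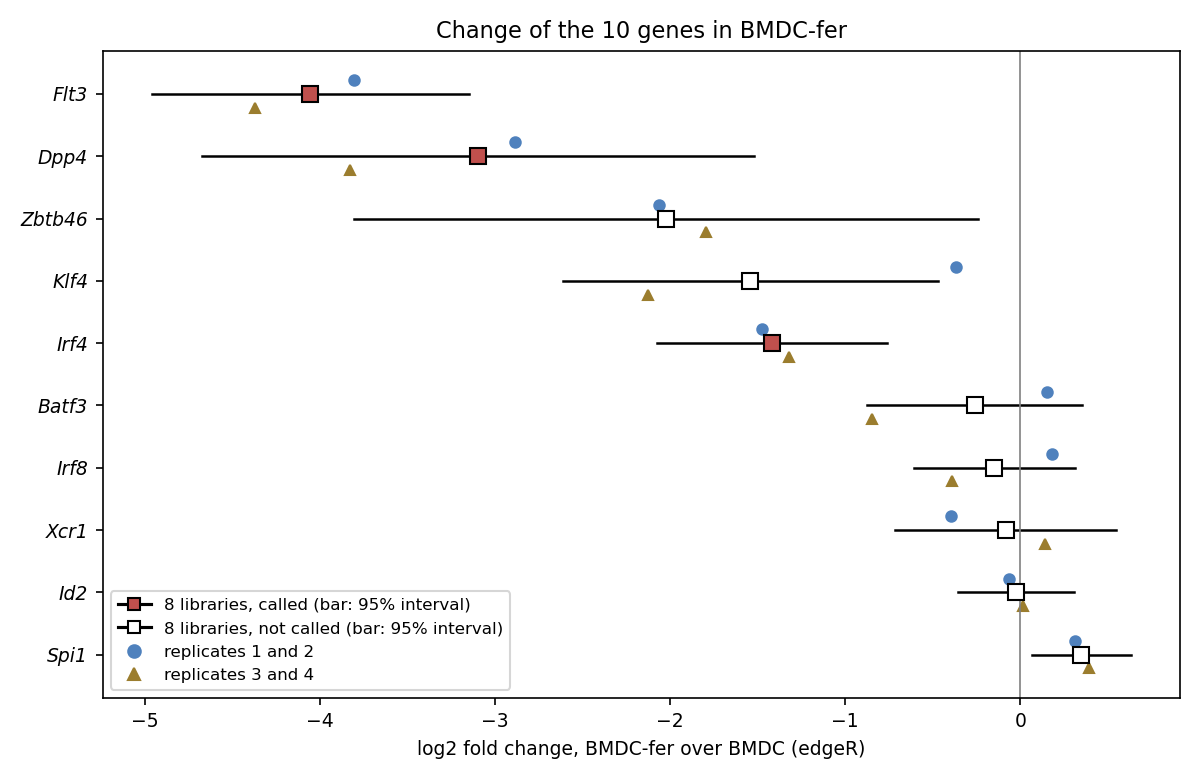
Log2 fold change of BMDC-fer over BMDC for the 10 genes from edgeR (squares, filled where called, with the 95% interval) and within replicates 1 and 2 (circles) and replicates 3 and 4 (triangles). Flt3, Dpp4 and Irf4 are called and lie at or below -1.42, whereas the pair values of Batf3 and Irf8 lie on opposite sides of 0.

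Levels of different genes were compared only per kilobase of exon (RPKM). In BMDC the order began with Spi1 at 145.8 ± 18.0 RPKM and Id2 at 144 ± 24.9 RPKM, which overlapped. Klf4 (32.8 ± 22.1 RPKM), Irf4 (30.7 ± 10.5 RPKM), Irf8 (21.5 ± 6.41 RPKM) and Batf3 (16.0 ± 0.378 RPKM) followed, each overlapping the next. Dpp4 (8.37 ± 4.83 RPKM) lay below Batf3 without overlap, then came Zbtb46 (2.33 ± 2.01 RPKM), Xcr1 (0.719 ± 0.105 RPKM) and Flt3 (0.635 ± 0.0692 RPKM), again each overlapping the next. In BMDC-fer, Spi1 (185.6 ± 15.7 RPKM) no longer overlapped Id2 (141.5 ± 16.2 RPKM). Irf8 (19.4 ± 1.33 RPKM) and Batf3 (13.3 ± 5.32 RPKM) now preceded Irf4 (11.5 ± 3.48 RPKM) and Klf4 (11.3 ± 1.77 RPKM), with overlap between neighbours, and Flt3 (0.0371 ± 0.0238 RPKM) lay below all others without overlap.

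The balance of the IRF pair that characterises the cDC2 and cDC1 branches was read within each library as the ratio of Irf4 to Irf8 in RPKM. BMDC replicates 1 to 4 had ratios of 2.81, 2.19, 0.819 and 0.789, and the BMDC-fer libraries, in the same order, had 0.867, 0.698, 0.432 and 0.408. Irf4 exceeded Irf8 in BMDC replicates 1 and 2 alone, and each BMDC-fer library lay below the BMDC library of its number, but BMDC-fer replicate 1 exceeded BMDC replicates 3 and 4. The difference of the mean log2 ratios was -1.30, with an exact permutation p = 0.0857 (adjusted p = 0.129 over 6 ratios), and between same-numbered libraries it lay between -1.70 and -0.92. Flt3 over Spi1 differed by -4.63 and Id2 over Spi1 by -0.37 on the log2 scale, both without overlap between groups (exact permutation p = 0.0286 and adjusted p = 0.0857 for each). Zbtb46 over Spi1 differed by -2.36 (exact permutation p = 0.0857), and by between -2.85 and -2.02 between same-numbered libraries. Irf4 over Irf8, Flt3 over Spi1, Zbtb46 over Spi1 and Id2 over Spi1 were each lower in 4 of 4 same-numbered comparisons, for which the paired exact test gave p = 0.125, the smallest that 4 pairs allow. Batf3 over Irf8 differed by -0.26 (exact permutation p = 0.514) and Klf4 over Irf4 by 0.15 (exact permutation p = 0.914). Because 0.0286 is the smallest p of the unpaired test, 2 ratios at that value could not reach 0.05 after adjustment over 6.

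**Figure D3:**
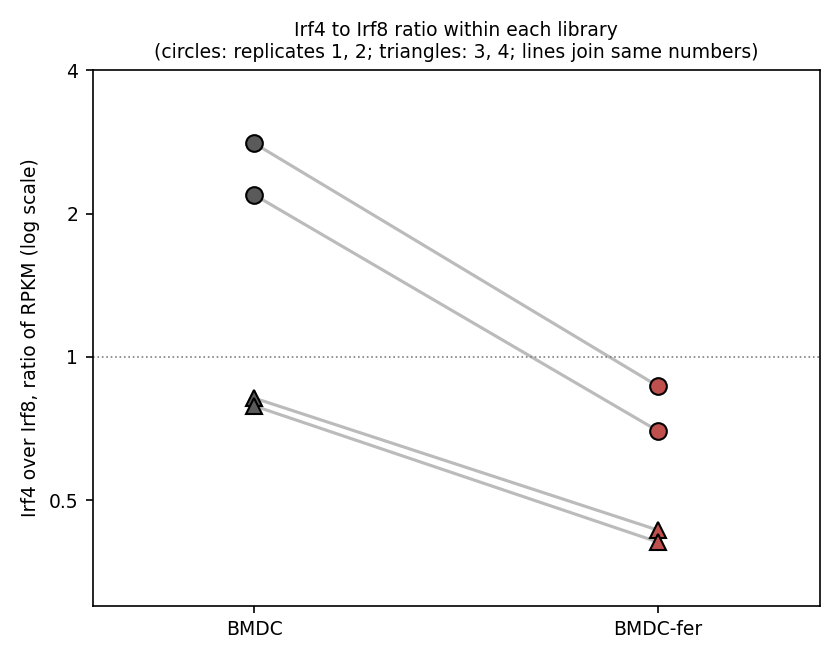
Ratio of Irf4 to Irf8 in RPKM for each library on a log axis, with grey lines joining libraries of the same replicate number and a dotted line at equal levels. All 4 lines fall, from between 0.789 and 2.81 in BMDC to between 0.408 and 0.867 in BMDC-fer.

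The untreated cultures also differed among themselves. The log2 level of replicates 3 and 4 relative to replicates 1 and 2 was -2.29 for Zbtb46, -1.37 for Dpp4 and -0.88 for Irf4, and 1.92 for Klf4 and 0.73 for Irf8. After removal of the group means, log2 levels over the 8 libraries correlated at r = 0.961 between Irf4 and Zbtb46, 0.926 between Irf4 and Dpp4 and 0.951 between Irf8 and Klf4, and at -0.839 between Irf4 and Irf8. These values share the replicate pairs and describe these libraries only.

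The genes whose log2 CPM followed a member most closely over the 8 libraries were sought among 11450 tested genes whose mean count reached 100. For Flt3 they were Ikzf4 (r = 0.999), Car2 (0.996) and Avil (0.996), for Dpp4 they were Mycl (0.997), H2-DMb2 (0.997) and Fnbp1l (0.996), and for Irf4 they were Fnbp1 (0.998), Nup210 (0.995) and Zeb1 (0.994). Those of Zbtb46 were Il2ra (0.995), Cldn1 (0.99) and Rtn1 (0.99), and those of Spi1 were Polr2h (0.997), Mphosph10 (0.994) and Wdr75 (0.992). Irf8 was followed by Trim6 (0.988), Nr1d1 (0.984) and Arsg (0.979), and Klf4 by Mapkap1 (0.991), Wdr45b (0.99) and Eif3c (0.99). For Batf3 (Epsti1, 0.965) and Id2 (2010005H15Rik, 0.907) the closest gene was less alike. With 8 libraries and so many candidates, high values arise readily, and they are given as a description.

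Other genes of the dendritic cell programs were read from written lists, with counts set against the 5.91% called lower and 3.47% called higher among all tested genes. Counts at an unadjusted p under 0.05 stand beside 4612 of the 15411 tested genes, in either direction. Over all genes DESeq2 called 1525 lower and 889 higher, against 911 and 534 by edgeR. It was run without the filter on low counts, so its counts can include genes of a list that edgeR did not test. Of the shared dendritic cell genes, 8 of 25 tested fell and 0 rose (median log2 fold change -1.53). The largest falls were those of P2ry10 (-2.94), a G-protein-coupled receptor, Hmgn3 (-2.56) and Rab30 (-2.42, at most 49 counts in any library). With the replicate block 18 of the 25 fell, whereas 4, 3 and 4 fell without BMDC-fer replicates 2, 3 and 4, and 6 to 11 without any other library. Over all genes, 834, 897, 591 and 603 were called lower without BMDC replicates 1 to 4, against 911 with all libraries. Without BMDC-fer replicates 1 to 4 the numbers over all genes were 689, 494, 548 and 371. At an unadjusted p under 0.05, edgeR gave 1 of the list higher, and DESeq2 called 0 higher. Itgax, a gene of this list that was named after its values were seen, gave -0.10 and was not called (adjusted p = 0.797, edgeR). Mature dendritic cell genes fell in 10 of 19 tested and rose in 0, also by DESeq2 and at an unadjusted p under 0.05 (median -1.08), led by Fscn1 (-3.54), which encodes the actin bundler fascin, Cacnb3 (-3.43) and Slco5a1 (-3.15), and the count stayed between 8 and 11 whichever library was left out.

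Among cDC1-associated genes, 5 of 14 tested fell and 1 rose (median -0.60). Itgae, the integrin chain CD103, gave -3.23, from 22.2 ± 12.2 to 2.35 ± 2.37 CPM (adjusted p = 0.0253, edgeR). Mycl, a MYC family factor of dendritic cells, gave -2.99 (adjusted p = 0.025, edgeR), and Bcl6, a transcriptional repressor, gave -1.25 (adjusted p = 0.0351, edgeR). Rab7b, a small GTPase of the endosomal system, was the one that rose, from 52.6 ± 6.64 to 131.4 ± 13.2 CPM (log2 fold change 1.32, adjusted p = 0.00207, edgeR). Clec9a, the cDC1 receptor for dead cells, also named after its values were seen, stood at 9.51 ± 6.91 CPM without and 18.9 ± 10.9 CPM with cargo without being called (adjusted p = 0.307, edgeR), and with the replicate block it was called higher (log2 fold change 1.16, adjusted p = 0.0266, edgeR), in a fit where 6 genes of the list fell and 2 rose. The number of falls dropped to 1 without BMDC-fer replicate 2, 3 or 4, and to 3 without BMDC replicate 1 or 2.

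Of the cDC2-associated genes, 2 of 16 tested fell and 2 rose (median -0.58). Ltb, a lymphotoxin chain, gave -2.77 and the lectin gene Clec4a4 gave -2.11, whereas the lectin gene Clec4a2 rose by 0.62 and Sirpa, the CD172a receptor used to mark cDC2, by 0.60. With the block 5 fell and 2 rose. The count of falls lay between 0 and 3 over the fits that left out 1 library, and it was 0 without BMDC replicate 1, 2 or 4 or BMDC-fer replicate 2, 3 or 4. Both branch lists had a median below 0 and held genes that fell and genes that rose, and the difference between the lists was not tested.

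Further transcription factors of dendritic cells fell in 6 of 25 tested and rose in 0 (median -0.59). The largest falls were those of Mycl, of Zeb1 (-1.88), a repressor of the ZEB family, and of Ahr (-1.59), the aryl hydrocarbon receptor, which was not called with the replicate block (adjusted p = 0.103, edgeR). The number was 2 and 3 without BMDC replicates 3 and 4, and 0, 1 and 0 without BMDC-fer replicates 2, 3 and 4. DESeq2 called 11 lower and 0 higher, where over all genes it called 1525 lower and 889 higher. At an unadjusted p under 0.05 edgeR gave 11 lower and 3 higher. By family, 0 of 6 tested interferon regulatory factors other than Irf4 and Irf8 were called by edgeR, where 1 was higher at an unadjusted p under 0.05 and DESeq2 called 1 in each direction. Of 10 KLF factors other than Klf4, Klf5 (-2.23, at most 28 counts in any library) and Klf7 (-0.66) fell, and 1 fell with a count minimum of 50. Among 10 ETS factors related to PU.1, Spib (-2.47), its closest relative, and Etv3 (-0.94) fell. Of 10 BATF and JUN partners, Batf (0.94) and Jun (0.70) rose, and of 5 ID and E proteins tested, Id1 (1.08) rose while Id4 had no count in any library. These family counts were small, and without BMDC-fer replicate 4 they were 0 for the KLF, the BATF and JUN, and the ID and E lists, and 1 for the ETS list. That fit called 371 genes lower and 194 higher over all genes, against 911 and 534 with all libraries. Growth factor receptors and Flt3 ligand gave 0 of 9 called by edgeR (1 lower and 1 higher at an unadjusted p under 0.05, and 1 lower by DESeq2), with Flt3l at 3.65 ± 0.309 CPM without and 2.37 ± 0.429 CPM with cargo (adjusted p = 0.073, edgeR).

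**Figure D4:**
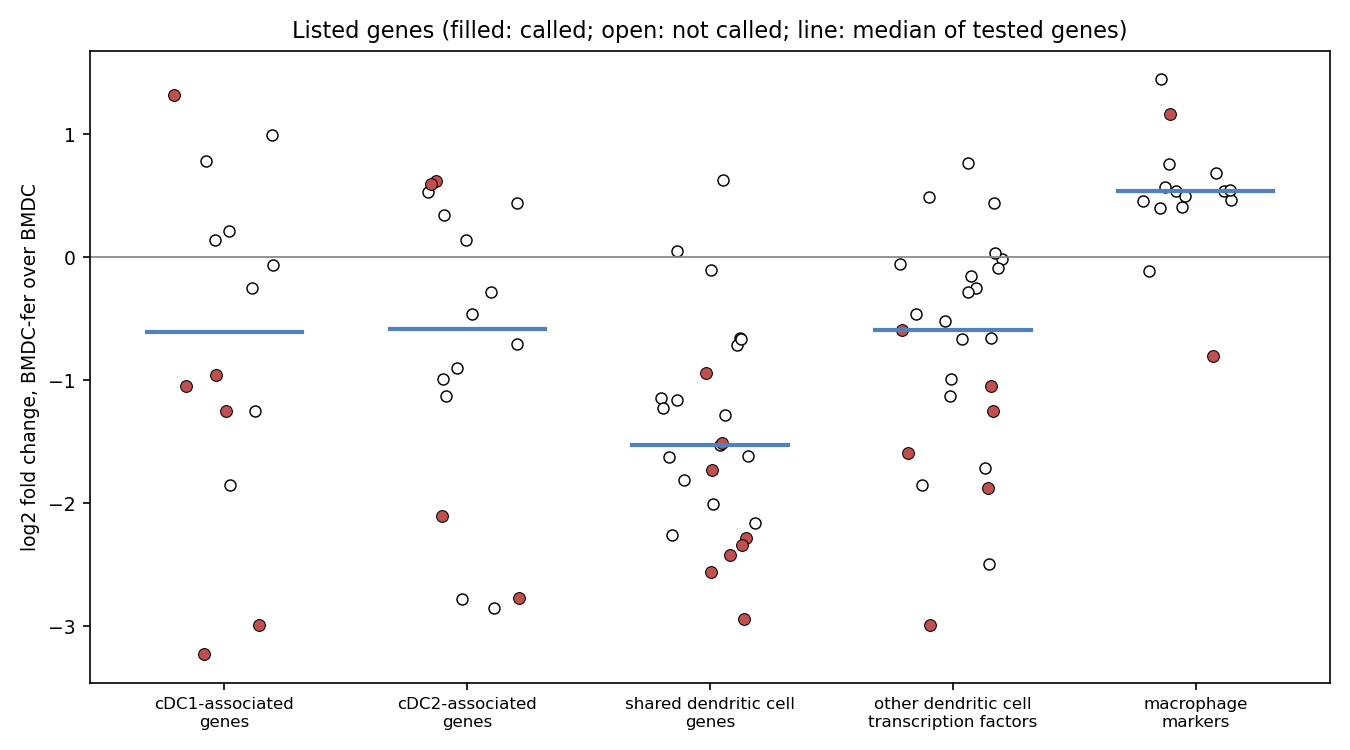
Log2 fold change of BMDC-fer over BMDC for each tested gene of 5 lists, with filled points where the gene was called and a line at the median of the list. Medians are -0.60, -0.58, -1.53 and -0.59 for the 4 dendritic cell lists and 0.54 for the macrophage markers.

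Markers of other cells that the cultures could hold were read the same way. Of 15 macrophage markers, Msr1 (1.16), a scavenger receptor, rose and Adgre1 (-0.81), which encodes F4/80, fell, with a median of 0.54. At an unadjusted p under 0.05 edgeR gave 6 higher and 1 lower, and with the block 2 were called higher, Marco (1.33, adjusted p = 0.022, edgeR) being added. Their summed level lay between 16070 and 31360 CPM in the untreated cultures and between 28880 and 38700 CPM in BMDC-fer. Neutrophil markers fell in 5 of 10 tested (median -3.40), their summed level moving from between 52.8 and 273.5 CPM to between 20.98 and 58.6 CPM. Retnlg (-4.14), Ngp (-3.90) and S100a9 (-3.73) fell most, with Ly6g at 1.14 ± 0.734 CPM in untreated BMDC and 0.163 ± 0.131 CPM in BMDC-fer. Retnlg had at most 83 counts in any library and a mean of 0.07 CPM in BMDC-fer, near the floor. With a count minimum of 50, 2 of the list fell. With the block 9 of the 10 fell, whereas 2, 1 and 2 fell without BMDC replicates 1, 3 and 4, and 1, 1 and 0 without BMDC-fer replicates 2, 3 and 4. Mast cell and basophil markers were called in 0 of 2 tested by edgeR and in 1 with the block (both tested genes were lower at an unadjusted p under 0.05). DESeq2, run without the filter on low counts, called 5 of the 8 genes of the list, so its count includes genes that edgeR did not test. Their summed level was 14.6 to 42.0 CPM in untreated cultures against 4.80 to 12.6 CPM in BMDC-fer, with Mcpt4 at 0 in all libraries. Their part, and that of the neutrophil and macrophage markers, in the falls of Flt3, Dpp4 and Irf4 was not tested.

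Monocyte markers gave 0 of 7 called by edgeR, 0 by DESeq2 and 0 at an unadjusted p under 0.05, at a summed 478 to 1706 CPM in untreated cultures against 622 to 1652 CPM in BMDC-fer. Plasmacytoid dendritic cell markers gave 0 of 6 called by edgeR (1 with the block, 0 by DESeq2, 2 lower at an unadjusted p under 0.05), at 180.5 to 240.4 CPM and 149 to 267 CPM, and Siglech, which defines those cells, had 0.0268 ± 0.0398 CPM in BMDC and no count in BMDC-fer. T cell markers gave 1 of 3 called, Lck (-1.59), at no more than 59 counts in any library, and 2 with the block or by DESeq2. That call was lost (0 called) with upper quartile normalization, with no filter, with a count minimum of 50, and without BMDC replicate 3 or 4 or BMDC-fer replicate 2, 3 or 4. Their summed level, from 29.6 to 43.2 CPM in untreated cultures and from 29.2 to 53.8 CPM in BMDC-fer, was mostly Cd28, whereas Cd3e stood at 0.0514 ± 0.0327 CPM without and 0.0519 ± 0.0695 CPM with cargo, under the floor. B cell markers gave 0 of 1 called by edgeR, 0 by DESeq2 and 0 at an unadjusted p under 0.05, at a summed 0.369 to 1.44 CPM in untreated cultures against 0.405 to 0.602 CPM in BMDC-fer.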

How the data were processed

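Transcripts of mouse genes were measured in 4 BMDC-fer and 4 untreated BMDC libraries, described in the study's text as collected independently. Per the study's methods and processing notes, the authors mapped reads with HISAT2 to mm10, counted them per gene with featureCounts, also against the human genome, and deposited unnormalized counts for mouse genes. Use of strand, the annotation and treatment of multi-mapping reads are not given in the sources used here. Libraries were assigned to groups by the sample labels. Symbols and exons came from GENCODE M21 (55227 of 55487 identifiers matched) and promoters from RefSeq (9 of 10 members matched).

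The deposited counts were taken into edgeR 4.0.16 under R 4.3.3 (TMM normalization, count minimum of 10, which is 0.236 CPM, all 8 libraries, no block). The same steps were run on simulated counts with known changes. Those counts held no resemblance within replicate pairs, so that run does not cover this feature of the data. Exact permutation tests used log2(CPM + 0.05), or log2 ratios of RPKM, and shuffled all 8 libraries without regard to replicate number or pair. DESeq2 1.42.0, which the authors used, other normalizations, filters, a replicate block and each library left out were alternatives. DESeq2 was run on all genes with a count in any library, without the filter used for edgeR. Deviations from the group means correlated at 0.446, 0.355, 0.313 and 0.343 between same-numbered libraries, each above 0.1, so replicate numbers were taken to pair the samples. Other libraries of the same replicate pair correlated at 0.186 to 0.38, some above the same-numbered ones, and libraries of different pairs at -0.388 to -0.279, so the values show the pairs more clearly than the single numbers. Fits of replicate pairs 1 and 2 or 3 and 4, of the pair as a covariate and of DESeq2 with the block, and a paired test of the ratios, were added after seeing the data. Chi-square per gene between replicates of a group was 9.00 to 40.9 within those pairs and 133 to 346 across them, more than counting error alone gives. These values cannot show whether libraries of a pair came from separate cultures or mice. The members and lists were chosen with earlier results of these data known. Genes named besides the members are mostly the up to 3 largest rises and falls among called genes of each list, defining markers of other cells, and the 3 genes most like each member. Not all of these are printed. Itgax, H2-Ab1, Clec9a, Flt3l, Marco, Cd28 and Id4 were named outside these rules.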

Additional observations from a re-analysis of the deposited data

Results flagged for a closer look

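Xcr1 in BMDC replicate 2, at 2.51 CPM, stood apart from the other 3 untreated cultures (3.37 to 3.50 CPM), with a gap to the nearest library of 0.865 of the range of the group. This was the only outlying library among 20 combinations of member and group, of which chance gives about 1.

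The effect differed between replicates 3 and 4 and replicates 1 and 2, by the interaction term of edgeR with Benjamini-Hochberg adjustment, for Klf4 by -1.76 (adjusted p = 0.00054), for Batf3 by -1.003 (adjusted p = 0.00766) and for Irf8 by -0.57 (adjusted p = 0.0173) on the log2 scale. For Klf4 the difference lay in the untreated cultures, at 38.1 and 45.4 CPM against 156 and 161 CPM, and for Batf3 in BMDC-fer, at 27.7 and 29.0 CPM against 11.4 and 17.0 CPM. Over all tested genes 37.8% passed an adjusted p of 0.05 for this term, against 3 of the 10 genes here. The replicate pairs were read from these data, so the p-values describe these cultures.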

How the results depend on the processing

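Flt3 was called under all 18 alternatives, with adjusted p at most 0.012, and Irf4 under 16 of them. Of the 10 genes, 3 were called with RLE or upper quartile normalization, with no filter, with a count minimum of 50 and on adjusted p alone, and 4 with the replicate block, which changed no member's call except that of Zbtb46. DESeq2 called 5 (Zbtb46 and Klf4 added), DESeq2 with the block 5, the replicate pair as a covariate 5, and replicates 3 and 4 only 6; leaving out 1 library gave 1 to 4. Over all genes the count of 1445 became 2414 with DESeq2, 2867 with DESeq2 and the block, 2815 with the pair as a covariate, 3062 in replicates 1 and 2 only, 5604 in replicates 3 and 4 only, and 565 to 1440 without 1 library (862 and 879 without BMDC replicates 3 and 4, and 797, 867 and 565 without BMDC-fer replicates 2, 3 and 4). The sign turned for Id2 (-0.10 to 0.11 when 1 library was left out, with 0.11 without BMDC replicate 1, 0.018 and 0.008 without BMDC-fer replicates 2 and 4, 0.029 in replicates 3 and 4 only), for Xcr1 (-0.27 to 0.11, with 0.11 without BMDC-fer replicate 1, 0.16 in replicates 3 and 4 only), and, in replicates 1 and 2 only, for Irf8 (0.19) and Batf3 (0.16). Over the members and alternatives, 154 values kept their sign and side of the threshold, 8 turned in sign, 13 newly passed the threshold and 5 lost it, which were those of Irf4 and Dpp4 without 1 BMDC-fer library; the cause was not tested. The low counts of Flt3 in BMDC-fer (5 to 22) limit the precision of its fold change.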
